A study of Mus musculus with 62 samples.

Results

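The genes described here encode the proteins of the cytosolic ribosome. They were taken from the table of gene rows by name: all rows beginning with Rpl or Rps and a digit, without Rps6 kinases and pseudogenes, together with Rpsa, Rplp0, Rplp1 and Rplp2. The rule gave 88 of 19112 gene rows, 53 named for the large subunit and 35 for the small one. Of these, 77 encode a core ribosomal protein (46 large, 31 small), 10 are paralogs or retrocopies, and Rps19bp1 encodes a protein that binds RPS19 and is no ribosomal protein. The core proteins Fau and Rack1 fall outside the naming rule and are given beside the members.

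The cells were KPC1199-EGFP, a mouse pancreatic cancer line labelled with the C57BL\6 background and EGFP expression. They grew attached to plastic, received no treatment and were taken at passage 9. After trypsin treatment, 62 single cells were captured and their cDNA amplified on a Fluidigm C1 chip, with Nextera XT libraries. All libraries come from 1 culture of 1 line and form 1 group, so cells are not replicates of a condition. Spreads below are over cells, no test was run, and correlations across cells are descriptions with no p-value.

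A cytosolic ribosome joins a small subunit, which reads the mRNA, to a large subunit, which forms the peptide bond. Each subunit holds 1 copy of nearly every one of its proteins, and free ribosomal proteins are quickly degraded. Mammalian ribosomal protein mRNAs begin with a C and a run of pyrimidines, the terminal oligopyrimidine (TOP) motif, through which mTORC1 and LARP1 control their translation. The genes lie scattered over the chromosomes.

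The starts of some members are shown because this motif is what the family is known to share. Windows of 30 bases, 15 before and 15 after each annotated RefSeq start (build GRCm38.p6), were searched on the sense strand for CTTTC or CTTCC. These matches are in capitals and may overlap each other. The first 6 lines hold a match, the last 4 do not.
Rpl7a: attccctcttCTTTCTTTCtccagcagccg (chr2:26910792-26910821, plus strand)
Rplp2: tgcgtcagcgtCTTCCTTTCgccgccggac (chr7:141447636-141447665, plus strand)
Rps10: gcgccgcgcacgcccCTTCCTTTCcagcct (chr17:27635230-27635259, minus strand)
Rps15a: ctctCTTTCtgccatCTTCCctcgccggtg (chr7:118116133-118116162, minus strand)
Rps27: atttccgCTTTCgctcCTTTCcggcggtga (chr3:90213634-90213663, minus strand)
Fau: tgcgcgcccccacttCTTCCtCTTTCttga (chr19:6057932-6057961, plus strand)
Rpl10: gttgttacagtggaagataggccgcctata (chrX:74270801-74270830, plus strand)
Rpl24: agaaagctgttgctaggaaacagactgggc (chr16:55966260-55966289, plus strand)
Rps2: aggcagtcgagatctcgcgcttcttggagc (chr17:24720048-24720077, plus strand)
Rps4x: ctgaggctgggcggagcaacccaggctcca (chrX:102189377-102189406, minus strand)

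RefSeq gave 78 starts for 67 members, and 21 members were not matched. A match stood in 28 member starts (35.9%), against 10.3% of the 32851 RefSeq mouse starts. On the antisense strand the shares were 15.4% and 10.5%. By subunit, 40.4% of large and 29.03% of small subunit starts held a match. The window follows the annotated start only, and no match says no more than that these letters are not in it.

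Synthetic spike-in RNAs separated the libraries before any gene was considered. Their share of a library's counts was 0.190% to 1.83% in 50 libraries and 22.3% to 97.2% in the remaining 12. Those 50 held 2153900 to 12868800 estimated gene counts, with a median of 8830.5 genes above 0. The 12 held 112196 to 1133750 gene counts, and a median of 34.5 of the 77 core members stood at 0 in them. Values below are over the 50 unless the 12 are named. Of the epithelial markers Krt7, Krt8, Krt18, Krt19, Cdh1 and Epcam, 4 of 6 were above 0 in each of the 50, and Epcam in 18. Immune markers were at 0 in all 50 for 3 of 5 genes, fibroblast markers for 4 of 6, endothelial markers for 3 of 3 and acinar markers for 1 of 3. Their highest sums in a library were 33.3, 7.03, 0 and 37.3 CPM (counts scaled to a common total of gene counts), against 3599 to 24472 for the epithelial list.

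Ribosomal protein genes took 5.52% ± 0.839 (SD, n = 50 cells) of the gene counts of a cell. The lowest share was 3.91%, in library 11, the median 5.61% and the highest 7.08%, in library 46. Large subunit members took 2.32% to 4.24% (median 3.25%) and small subunit members 1.56% to 3.21% (median 2.28%). Both shares moved together from cell to cell, with a Pearson r of 0.863 and a Spearman rho of 0.887 over 50 cells. They share a library and a denominator. In the 12 spike-in-rich libraries the total spread from 1.40% to 9.01%.

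**Figure D1:**
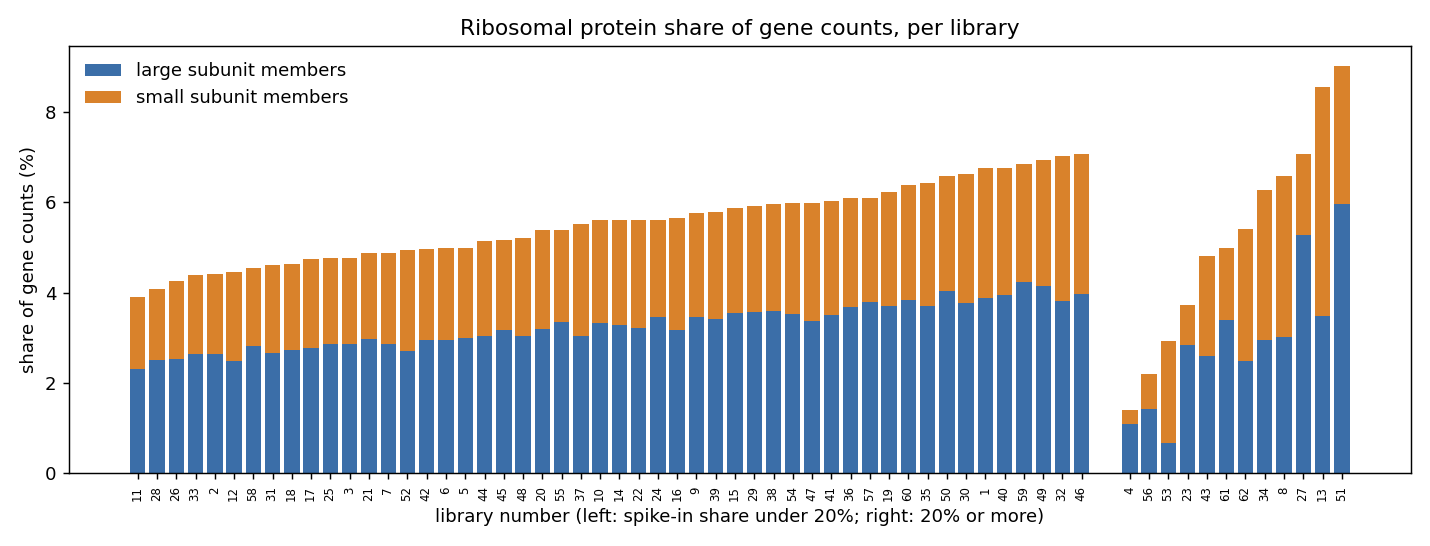
Share of gene counts (%) held by large and small subunit members, stacked, in each of the 62 libraries, with the 50 of low spike-in share on the left and the 12 others on the right, each ordered by total. The 50 range from 3.91% to 7.08%; the 12 range from 1.40% to 9.01% and mix the subunits in uneven proportions.

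Summed over members, the large subunit exceeded the small one in each of the 50 cells. The log2 ratio of summed CPM was 0.53 ± 0.12 (SD, n = 50), from 0.24 in library 32 to 0.73 in library 55, which is a median ratio of 1.47. This spread was not even over the label numbers, taken in 8 blocks of 12. The last block, with 5 cells including library 55, had a mean log2 ratio of 0.69, against 0.48 to 0.56 in the other blocks. What sets that block apart was not tested. The rule takes more large than small subunit genes, and their numbers alone have a log2 ratio of 0.60 (0.57 for core members). Per gene the order depended on the summary used. The mean log2(CPM + 1) was 9.12 over core large members and 9.19 over core small members. Their difference, large minus small, was -0.07 ± 0.13 (SD, n = 50) and below 0 in 33 of 50 cells. Per kilobase of transcript, the median core large member stood at 754 CPM and the median core small member at 854. In mean CPM without regard to length, the medians were 570 over core large and 564 over core small members. The excess of the large subunit in the sums was therefore no larger than its excess in gene number. The mean difference per gene was smaller than its SD over cells, and whether it departs from 0 was not tested. In the 12 other libraries the log2 ratio ran from -1.71 to 1.88.

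**Figure D2:**
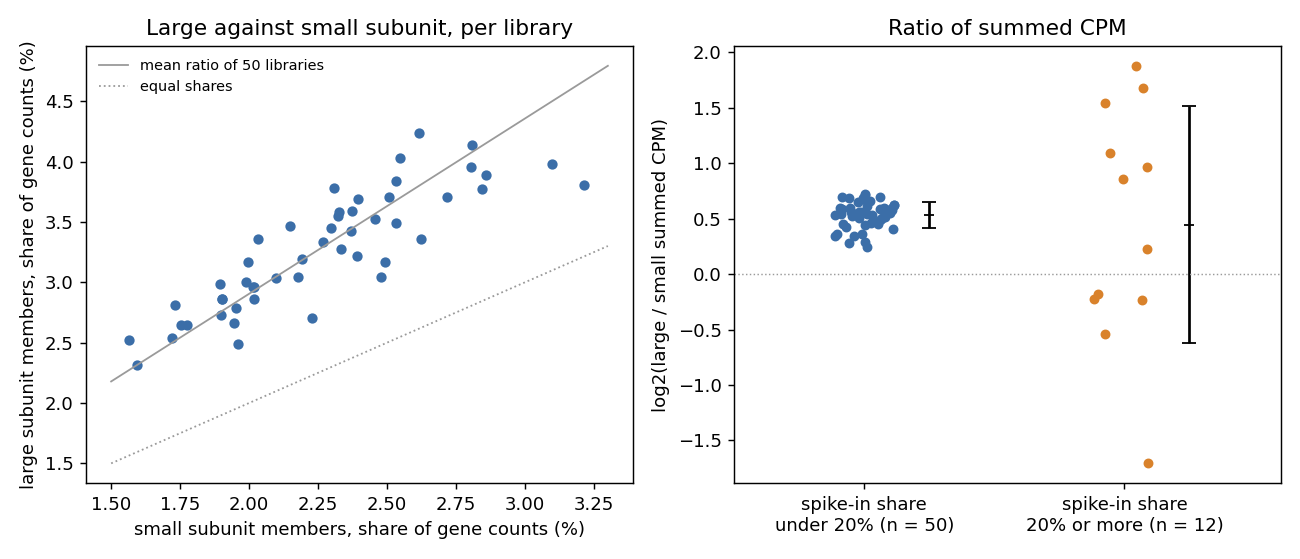
Left, large against small subunit share of gene counts (%) for the 50 libraries of low spike-in share, with lines for the mean ratio and for equal shares. Right, log2 ratio of summed CPM per library with the mean ± SD beside each set; the 50 lie between 0.24 and 0.73, the 12 spike-in-rich libraries between -1.71 and 1.88.

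Of 88 members, 84 were above 0 in every one of the 50 cells (51 large, 33 small), as were 11.4% of all gene rows. All 77 core members were among them. With a floor of 1 CPM, 84 members and 9.14% of all gene rows still passed. Only Rpl13 was above 0 in all 62 libraries, as were 0.952% of gene rows. Rpl13 is a large subunit protein and measured 948 CPM in its lowest cell of the 50, 1563 in the median one and 2775 in the highest.

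Levels of single proteins' mRNAs spread far more between genes than between cells. Over the 77 core members and 50 cells, the gene accounted for 81.5% of the variance of log2(CPM + 1), the cell for 5.93% and the rest for 12.6%. Each cell's profile over the core members correlated with the mean profile at 0.843 to 0.980, against 0.0953 to 0.715 in the 12 spike-in-rich libraries.

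Per kilobase of transcript, large subunit mRNAs among the most abundant were Rpl13 with 2075 CPM per kb (SD 523), Rpl19 with 1777 (SD 476), Rpl41 with 1544 (SD 354) and Rpl23a with 1501 (SD 424). Neighbours among these differed by less than the SD of either. In the small subunit Rps2 led with 2289 CPM per kb (SD 597), with Rps18 at 2163 (SD 506), Rps3a1 at 1722 (SD 400) and Rps14 at 1722 (SD 461). Per kilobase of coding length instead, Rpl41, which encodes the shortest ribosomal protein, came first with 5892 CPM per kb. This value uses its longest annotated coding part, 138 bases, and a shorter one would give a higher value. Rps2, a protein near the mRNA entry, held 1543 CPM in its lowest cell, 2146 in the median one and 5098 in the highest, library 1.

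**Figure D3:**
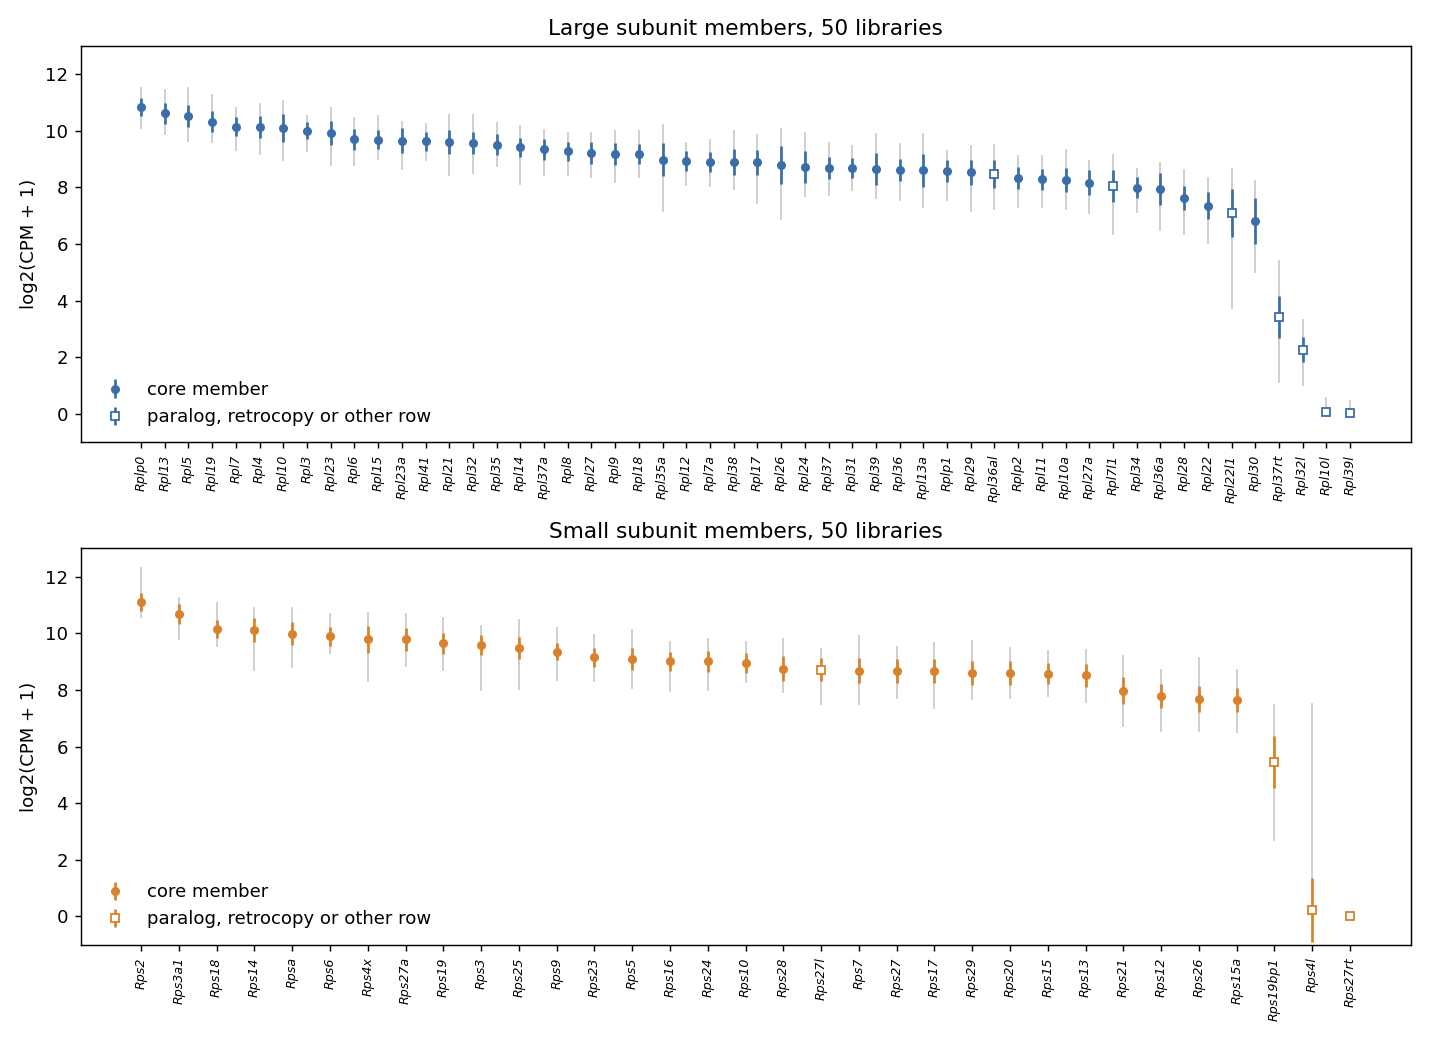
Mean log2(CPM + 1) of members over 50 libraries, large subunit above and small subunit below, with SD as coloured bars and the full range as grey lines. Filled circles are core members, which lie between 6.82 (Rpl30) and 11.12 (Rps2); open squares are paralogs, retrocopies and Rps19bp1, of which several lie near 0.

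The stalk of the large subunit, which recruits the translation factors, is built of the proteins of Rplp0, Rplp1 and Rplp2. Rplp0 measured 1092 CPM in its lowest cell, 1838 in the median and 2949 in the highest. Rplp1 had 189, 376 and 620 CPM, and Rplp2 157, 303 and 552. Per kilobase of transcript they stood at 1393, 784 and 743. Rpl5 and Rpl11, which with 5S rRNA can bind Mdm2, stood at 751 and 385 CPM per kb. Rps6, the target of S6 kinase, stood at 1114, and Rpsa, the laminin receptor protein of the small subunit, at 595. Rps3 stood at 830 and Rps19, a gene mutated in Diamond-Blackfan anaemia, at 1066. Rps27a, a ubiquitin fusion, stood at 1290 and Fau, a ubiquitin-like fusion, at 1115. Rack1, a scaffold on the small subunit, stood at 844.

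Cell-to-cell variability was read from the squared coefficient of variation: its log2 value minus the trend that genes of like mean level follow, here called the residual. It was below 0, hence less variable than the trend, for 75 of 85 members tested (44 of 52 large, 31 of 33 small), against 50.7% of the 12012 genes tested. The median residual was -0.56 over members, -0.52 in the large and -0.62 in the small subunit. The nuclear-encoded proteins of the mitochondrial ribosome gave 67 of 77 below 0 with a median of -0.62, so a low residual was not particular to the cytosolic family. Among core level genes outside the members, 89 of 123 with transcripts of at most 700 bases were below 0, against 575 of 1249 with longer ones. Over all 62 libraries the count of members below 0 was 31.

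Members of large residual included Rpl26 (0.54), Rpl35a (0.43), Rpl10 (0.41) and Rpl24 (0.35) in the large subunit and Rps2 (0.32) and Rps4x (0.18) in the small one. Rpl26, which lies beside the exit tunnel, had 116 CPM in the lowest cell, 482 in the median and 1074 in the highest. Rpl35a had 144, 494 and 1193 CPM, Rpl24 had 205, 411 and 961, and Rpl10 had 499, 1140 and 2107. At the other end were Rpl32l (-4.04), Rpl37rt (-1.70) and Rpl34 (-1.49) in the large subunit and Rps12 (-1.28), Rps9 (-1.24) and Rps16 (-1.20) in the small one. Rpl3, a core protein close to the peptidyl transferase centre, had the lowest coefficient of variation of all members, 19.5%. Its cells lay between 619 and 1480 CPM.

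Levels of the members varied together across cells. Over 3570 pairs of the 85 members, r was above 0 in 92.8% and averaged 0.305. The mean was 0.266 between large subunit members, 0.401 between small subunit members and 0.306 across subunits. Genes outside the members averaged 0.0237 over all tested and 0.0221 in the level range of the core members. In that range, 123 genes with transcripts of at most 700 bases averaged 0.127 and 1249 with longer transcripts 0.0277. With a score of those short transcripts regressed out, the members' mean was 0.242. With each library thinned to 100000 gene counts it was 0.236, and 0.310 between small subunit members.

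Each member was then set against the mean z score of all other members. The r exceeded 0.3 for 80 of 85 members (49 large, 31 small), against 2.36% of the 11927 genes outside, for which the score of all members was used. In the level range of the core members the share was 10.9% of 1427, and 34.1% of the 123 with transcripts of at most 700 bases. Among the highest were Rpl36 (0.84), Rpl27 (0.80) and Rpl23 (0.79) in the large subunit, and Rps15a (0.77) and Rps16 (0.77) in the small one. The lowest core members were Rpl10 (0.23), Rps4x (0.28), Rpl24 (0.31), Rpl4 (0.31), Rpl36a (0.32), Rpsa (0.32), Rpl35a (0.33), Rpl30 (0.33) and Rpl39 (0.33). Rps19bp1, the row with no ribosomal protein, was at 0.03. The median r was 0.609 over 23 core members with a start motif and 0.611 over 34 without.

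Companion genes were less uniform. Fau (0.58) and Rack1 (0.33) were both above 0.3 with the member score. Among elongation factors and other TOP mRNA genes 5 of 12 were above 0.3: Npm1 (0.59), a nucleolar chaperone, Naca (0.56) and Btf3 (0.54), subunits of the nascent polypeptide-associated complex, Tpt1 (0.45) and Nap1l1 (0.30). Eef1a1, which brings aminoacyl-tRNA to the ribosome, was at 0.25, Eef2, the translocase, at 0.15 and Pabpc1 at 0.04. Genes named as initiation factors (Eif) gave 4 of 29 above 0.3, near the share in the level range of the core members. Eif5a (0.41) and Eif1 (0.36) led this list, which goes by name and not by function. Ribosome biogenesis genes gave 8 of 40, led by the helicase gene Ddx21 (0.45) and Nop10 (0.45) of the box H/ACA particles. Mitochondrial ribosomal proteins gave 9 of 77, led by Mrpl42 (0.53), against 10.9% in the core level range and 2.36% of all genes outside. Their median log2(CPM + 1), 6.71, lies below that range, which begins at 6.82 (Rpl30). S phase genes gave 3 of 43 and G2 and mitosis genes 0 of 54.

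The member score had an r of 0.653 (rho 0.648) with the score of elongation factors and other TOP mRNA genes. With the mitochondrial ribosomal score it was 0.469 (rho 0.464), with biogenesis 0.359 (rho 0.388) and with initiation 0.272 (rho 0.291). With S phase it was 0.130 (rho 0.108), with G2 and mitosis -0.158 (rho -0.282) and with Myc -0.0338 (rho -0.160). Library measures moved with the score as well: r was -0.276 with genes detected, -0.333 with the log2 ratio of gene to spike-in counts, 0.297 with log2 gene counts and 0.568 with the short transcript score. The mean pairwise r with the short transcript score regressed out is given above; the part of the other library measures in the shared variation was not tested. Without the 2 libraries farthest from the median, the r with genes detected was -0.177. Scaled by median-of-ratios size factors instead of CPM, the r was 0.528 with elongation factors and other TOP mRNA genes. In that scaling it was 0.145 with the mitochondrial ribosomal score, 0.1497 with biogenesis and -0.254 with G2 and mitosis. It changed sign with initiation (-0.0373) and S phase (-0.0179).

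By the naming rule, the other genes closest to the score included Ndufc2 (0.69) of respiratory complex I, Lsm7 (0.66) and Snrpf (0.64) of RNA-binding rings, Tbca (0.65), a tubulin cofactor, the prolyl isomerase gene Ppia (0.63), Uqcc2 (0.62) and Tomm6 (0.62). The pseudogene rows Rps15a.ps6 (0.69), Rps15a.ps4 (0.64) and Rpl31.ps12 (0.62) completed these 10. The lowest were Adssl1 (-0.61), Zfp189 (-0.57), Mmp14 (-0.56), D430042O09Rik (-0.54) and Nipal3 (-0.52). Adssl1, Zfp189, D430042O09Rik and Nipal3 were above 0 in only 13 to 21 of the 50 cells. Likeness was read over 50 cells of 1 culture. Across other genes in the core level range, the median r was 0.236 at transcripts up to 500 bases and -0.0176 over 2500 bases. Core members had a median r with the other members of 0.674 up to 500 bases, 0.501 from 1001 to 1500 and 0.396 over 4 genes from 1501 to 2500. The 2 of longer annotated length, Rps15a and Rps20, had a median of 0.749, but their coding parts have only 390 and 357 bases. Lengths are medians over annotated coding transcripts. For Rps15a this is 5130 bases, while its transcript chosen by longest coding part has 640, so this last group need not hold long mRNAs.

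Of the 9 core members that followed the family least, 6 lie on chromosomes X and 16. Rpl10, Rps4x, Rpl36a and Rpl39 are the 4 core members on the X chromosome, and Rpl24 and Rpl35a are the only core members on chromosome 16. This was noticed in the correlation values and then described for all chromosomes. The chromosomes come from the GENCODE M21 annotation. Core members on the same chromosome had a mean r of 0.540 (197 pairs) and those on different chromosomes 0.320 (2729 pairs). With the core member score regressed out the means were 0.242 and -0.03. That score is the mean of these same genes, so the negative mean of the many other pairs is largely built in. Within subunits and across them the order was the same, with 0.551 against 0.280 for large pairs, 0.554 against 0.418 for small pairs and 0.524 against 0.319 for mixed pairs. Of the 20 highest pairs 12 shared a chromosome, as did 8 of the highest 10, against 6.73% of all core pairs.

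Rpl24 and Rpl35a, both of the large subunit, had an r of 0.805 with each other and a mean of 0.185 with members elsewhere. Library 54 was the lowest cell and library 15 the highest for both genes. Leaving out each library in turn kept their r between 0.786 and 0.851. The 4 X-linked members had a mean r of 0.590 among themselves (0.558 to 0.617 without each library in turn) and of 0.151 with the rest. Library 50 was the highest for both Rpl10 and Rps4x, and they span both subunits. Rpl17 and Rps14, also a large and a small subunit gene of 1 chromosome, had an r of 0.774, and both were lowest in library 31 and highest in library 57. Their cells ran from 173 to 931 CPM for Rpl17 and from 420 to 1913 for Rps14.

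Chromosome 11 carries Rpl19, Rpl23, Rpl23a, Rpl26, Rpl27, Rpl38 and Rps27a. Their 21 pairs averaged 0.668, with the highest of all core pairs, Rpl19 and Rpl38, at 0.836. Rpl38 is a large subunit protein known for its part in Hox mRNA translation. The 14 members on chromosome 7 averaged 0.550 and the 5 on chromosome 5 (Rpl21, Rpl5, Rpl6, Rpl9 and Rplp0) 0.591. The smallest mean within a chromosome was 0.323, for Rpl3, Rpl30, Rpl37 and Rpl8 on chromosome 15, against 0.276 with members elsewhere. The 10 lowest core pairs, among them Rpl10 and Rpl13a at -0.28, all lay on different chromosomes. So do most core pairs (2729, against 197 on the same chromosome), and the count is near that share.

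**Figure D4:**
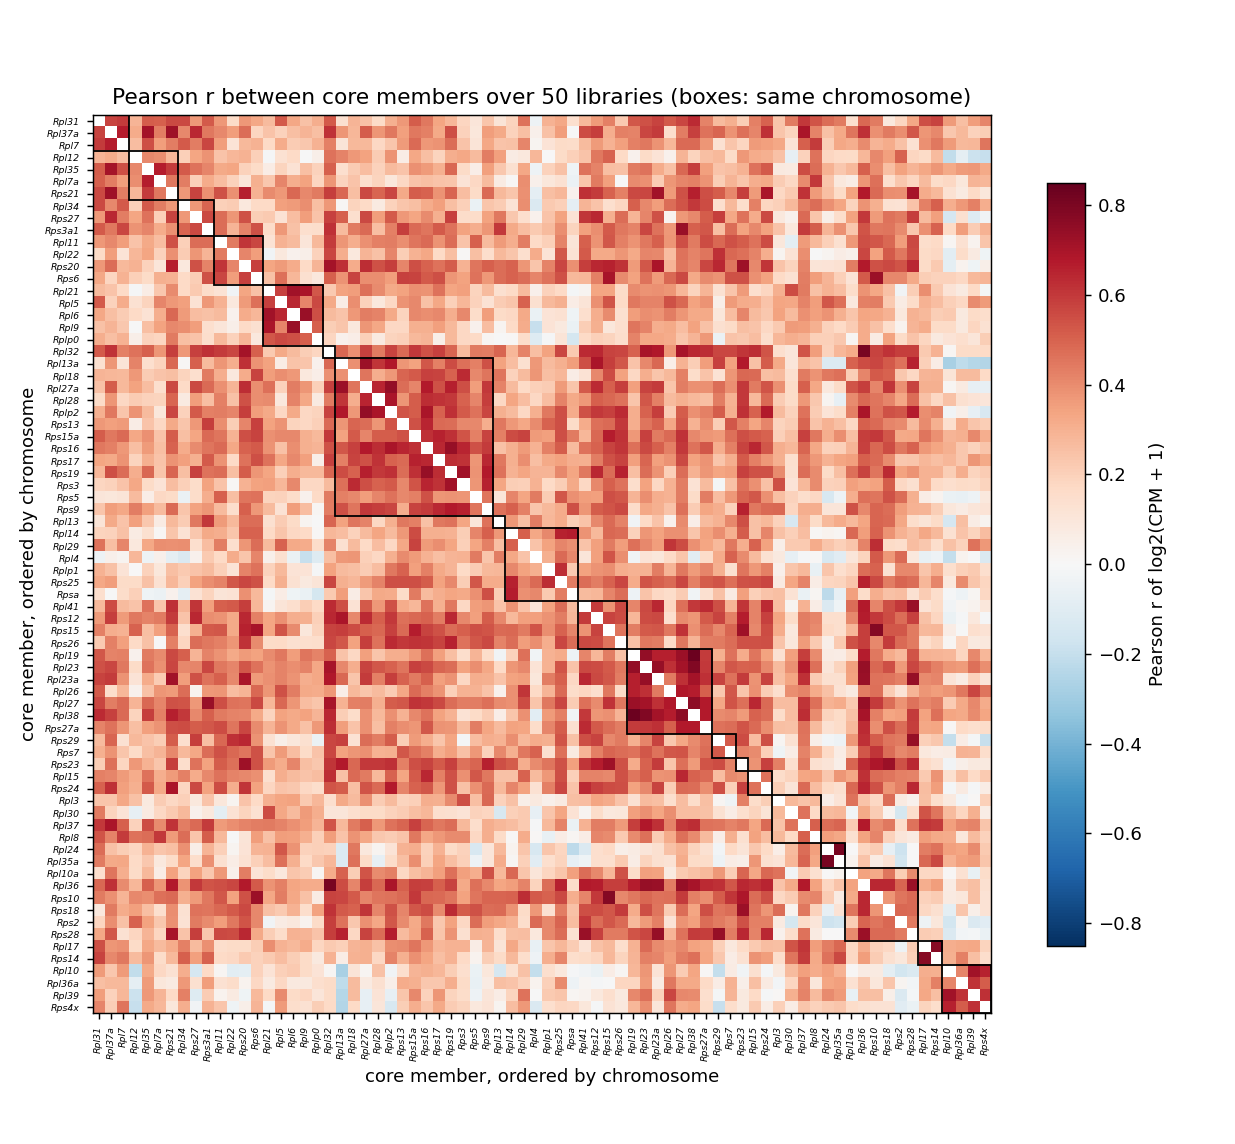
Pearson r of log2(CPM + 1) over 50 libraries for pairs of 74 core members, ordered by chromosome, with red above 0, blue below 0 and boxes around members of the same chromosome. Over all 77 core members, pairs on the same chromosome average 0.540 and other pairs 0.320. The last box holds the 4 X-linked members, whose r with members elsewhere averages 0.151, with values of both signs.

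The same pattern was then read from genes that are no members. For each chromosome, z scores were summed over its other genes above 0 in all 50 cells, 42 to 191 genes a chromosome. The own chromosome gave the highest r of 20 for 44 of 77 core members (57.1%), against 32.7% of 2029 other genes treated the same way without themselves. Following the own chromosome was thus common outside the family too, with a median r of 0.237, and 0.436 in the members. The 2029 genes were chosen by detection alone and were not matched to the core members in level. Neither gap can therefore be called particular to the family. The median over the other chromosomes was 0.0566 for members. In 75 of 77 members the own chromosome stood above the median of the other chromosomes. The exceptions were Rpl12 (0.04 against 0.05) and Rpl3 (-0.02 against 0.09). This count was not made for the 2029 other genes. Their own value minus that median had a median of 0.198, so most of them stood above it too. The highest own values were 0.76 for Rps14, 0.72 for Rpl10, 0.68 for Rpl17, 0.67 for Rpl24 and 0.66 for Rpl39 and Rpl13. With the core member score regressed out, 54 of 77 had their own chromosome highest. The share of other genes was not counted in that setting, so the rise from 44 cannot be called particular to the members. DNA copy number of these cells was not analysed here, and no cause of the pattern was tested. Over all 62 libraries, same-chromosome pairs averaged 0.575 and other pairs 0.587. There 10 members had their own chromosome highest, and 60 of 77 had it above the median of the others, with median r values of 0.793 and 0.785.

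**Figure D5:**
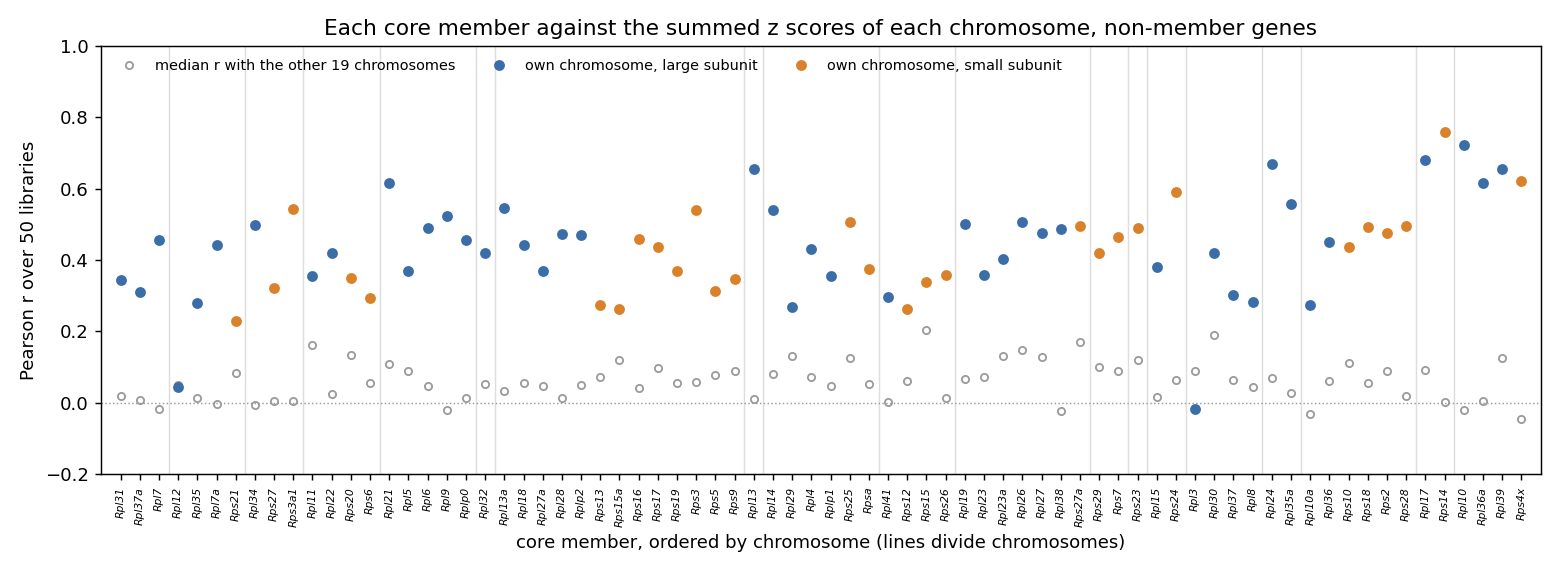
Pearson r over 50 libraries of 74 core members with the summed z scores of the non-member genes of its own chromosome (filled, by subunit) and the median r with the other 19 chromosomes (open), ordered by chromosome. The filled point lies above the open one for 72 of these 74, a count not made for genes outside the members. The 4 X-linked genes at the right end lie between 0.62 and 0.72.

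Several ribosomal proteins have a paralog that can take their place. Rps27l, a p53 target, was measured as strongly as Rps27: its cells ran from 180 to 691 CPM (median 431) and those of Rps27 from 209 to 725 (median 394). Rps27l made up 25.3% to 75.1% of the pair (median 49.4%) and exceeded Rps27 in 24 of 50 cells. The r between them was 0.106. Their coding sequences, from the GENCODE M21 transcripts, are shown because the counts of this pair rest on telling them apart. Both have 252 bases, of which 192 are identical (76.2%), and capitals mark the 60 that differ.
Rps27: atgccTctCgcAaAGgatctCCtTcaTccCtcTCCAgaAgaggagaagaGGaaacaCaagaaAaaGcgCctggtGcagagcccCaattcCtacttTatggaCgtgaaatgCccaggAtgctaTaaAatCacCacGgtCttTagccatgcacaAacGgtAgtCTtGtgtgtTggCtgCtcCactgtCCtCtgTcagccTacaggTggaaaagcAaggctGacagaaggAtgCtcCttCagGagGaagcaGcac
Rps27l: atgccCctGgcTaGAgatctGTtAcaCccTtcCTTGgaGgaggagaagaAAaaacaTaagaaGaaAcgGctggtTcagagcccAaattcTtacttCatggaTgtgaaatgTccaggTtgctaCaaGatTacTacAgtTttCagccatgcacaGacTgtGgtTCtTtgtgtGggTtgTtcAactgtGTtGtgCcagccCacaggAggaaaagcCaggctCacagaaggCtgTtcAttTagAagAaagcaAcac

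Rps27rt, a retrocopy, has the coding sequence of Rps27 base for base (100% of 252). It was at 0 in all 50 cells and above 0 in 8 of the 12 spike-in-rich libraries, and reads of the pair cannot be told apart over the coding part.

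Rpl22l1 and Rpl22, which are known to regulate each other, stood at 12.4 to 399 CPM (median 158) and 65.2 to 318 (median 168). Rpl22l1 made up from 3.76% to 83.5% of the pair and exceeded Rpl22 in 18 cells. The r was -0.254, but the rho was -0.0115; library 17 held both the lowest Rpl22l1 and the highest Rpl22. Rpl36al exceeded Rpl36a in 38 of 50 cells, with a median of 56.6% of the pair and an r of 0.117. Rpl36al lies on an autosome and Rpl36a on the X chromosome. Rpl7l1 stayed below Rpl7 in every cell, at a median of 20.2% of the pair, with an r of -0.0876.

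The remaining copies were scarce. Rpl10l was above 0 in 12 cells and Rpl39l in 2, at most at 0.464 and 0.364 CPM. Rps4l was above 0 in 6 cells and reached 179 CPM in library 31, or 16.5% of its pair with Rps4x. Rpl32l and Rpl37rt were above 0 in all 50 with medians of 3.87 and 9.69 CPM, and had an r of 0.796 with Rpl32 and of 0.413 with Rpl37. These genes share sequence with their parents: 27.1% of the 31-base words of Rpl32 are in Rpl32l and 35.3% of those of Rpl37 in Rpl37rt. Over core members, a median of 61.4% of such words occur in another gene, and in 52 of 77 at least 50% do. Estimated counts divide such reads by a model, so levels of members with close copies are uncertain.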

How the data were processed

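Each of the 62 libraries is 1 cell of 1 culture. The authors deposited estimated counts for each gene symbol. The submitters' processing notes name kallisto and build mm9. Its version, the annotation and the step from transcripts to genes were not given in the sources used here. The deposited table has 65 spike-in rows, left out of library sizes, and 19112 gene rows.

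Estimated counts were scaled to CPM by the gene rows of a library, unrounded, and taken as log2(CPM + 1). Main values use 50 libraries, those in which spike-ins took under 20% of counts. Variability residuals used a lowess trend (fraction 0.3, statsmodels 0.14.6) over genes above 0 in at least 10 libraries. Scores are mean z values. To see what depth does, estimated counts were rounded and drawn down to 100000 per library. With 1 culture no test was run, and values over cells speak of this culture. The calculations were tested on simulated data.

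The members and gene lists were chosen with earlier results of these data known. Named genes are the paralog pairs, stalk and other listed proteins, and per subunit the 5 highest per kb, 5 largest and 3 smallest residuals, and those above 0 in under 50% of libraries, plus the 10 genes most and 5 least like the score. Per kb of transcript was printed first and coding length second. Other genes, and the analysis by chromosome, were chosen after their values were seen. Lengths and chromosomes come from GENCODE M21, start sequences from RefSeq (GRCm38.p6). Some genes are not reported here by name and are left out of the figures; counts and means still include them. No doublet caller was run. Alternatives were scaling, pseudocount, thinning, filters, core members, blocks of label numbers, all 62 libraries and leaving out the 2 libraries farthest from the median. Python 3.11.15, numpy 2.4.6, pandas 2.3.3 and matplotlib 3.10.9 were used.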

Additional observations from a re-analysis of the deposited data

Results flagged for a closer look

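The table also holds 7 rows of ribosomal protein pseudogenes, which the naming rule leaves out of the members; 3 of them appear above among the genes most like the member score. They carry counts: Rpl34.ps1, Rpl31.ps12, Rplp2.ps1, Rps15a.ps4 and Rps15a.ps6 were above 0 in 50 of 50 cells each, Rpl14.ps1 in 34 and Rps19.ps3 in 31. Summed, they held a median of 449 CPM, which equals 0.834% of the members' counts. Rpl34.ps1 made up 39.8% to 56.98% of its pair with Rpl34 (median 49.1%) and had an r of 0.857 with it over 50 cells. Rps15a.ps4 had an r of 0.902 with Rps15a, Rps15a.ps6 of 0.828, and Rpl31.ps12 of 0.804 with Rpl31. Rplp2.ps1 reached 421 CPM, or 49.1% of its pair, with an r of 0.240, and Rpl14.ps1 had an r of -0.244 with Rpl14. Of the 31-base words of Rpl34, 58.2% are in Rpl34-ps1, and whether these counts are reads of the parent genes was not tested.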

How the results depend on the processing

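Over the 50 cells, 5 of 105 alternative values changed direction. The log2 ratio of large over small turned from 0.53 to -0.0771 as a difference of mean log2 level over all members and to -0.0652 over core members, since a mean does not count members. With size factors, the r of the member score became -0.0179 for S phase, -0.0373 for initiation, 0.0557 for Spp1 and 0.145 for mitochondrial ribosomal proteins. It became 0.1497 for biogenesis, -0.254 for G2 and mitosis, -0.0828 for Myc and 0.528 for elongation factors and other TOP mRNA genes. The cause was not tested. Thinning took the mean pairwise r from 0.305 to 0.236, and leaving out the 2 farthest libraries took the r with genes detected from -0.276 to -0.177. With the 12 spike-in-rich libraries included, members above 0 everywhere went to 1, members with a residual below 0 to 31, and the mean pairwise r to 0.567. The r of the score became 0.911 with genes detected, 0.919 with gene counts per spike-in count, 0.739 with G2 and mitosis, 0.588 with Myc and 0.604 with Spp1. Same minus different chromosome went to -0.012, and own chromosome highest to 10; in these libraries many members are at 0. Over the 50 cells, that difference was 0.19 to 0.27 under the other settings tried and 0.19 to 0.23 without each library in turn. The alternatives for chromosomes, the mean over core members, the short transcript score and leaving out the 2 farthest libraries were added after seeing the data. No paired analysis was possible because all libraries form 1 group. The main limits are 1 culture, unknown transcript annotation, and copies that share reads.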
